A study of Rattus norvegicus with 20 samples.

Results

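RNA from the blood cells of CAF-fed WKY rats was compared with that of CAF-fed LEW rats, gene by gene. The rats were chosen by their labels alone, which name 5 WKY and 5 LEW rats on CAF among the 20 rats of the series, and no measured value entered the choice. All were males of the inbred colonies LEW/Crl and WKY/NCrl, aged 15 weeks, which had eaten CAF, a choice of palatable, energy-dense human foods, for 7 weeks and were fasted before blood was drawn. The other 10 rats, 5 of each strain, ate STD, a standard chow, for the same time, and served as separate animals in which the same strain contrast could be measured. Each strain was a single inbred colony, so that a strain difference here holds everything that separates the colonies. By their labels the samples are PBMC, a mixture of lymphocytes and monocytes, but in the methods plastic-adherent monocytes were kept.

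Monocytes circulate for a short time, read microbial and metabolic signals through Toll-like and cytokine receptors, and answer with cytokines, chemokines and lipid mediators. Interferons act on the same cells, where STAT and IRF transcription factors switch on antiviral genes. Chemokine receptors on the same cells decide which tissue they enter, and in obesity many of them enter fat.

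Each rat had 1 Rat Gene ST array with log2 signal values of 28826 transcripts (probe sets), of which 15214 carry 1 gene symbol and stand for 14499 genes. Array medians lay between 6.83 and 6.90, correlations between arrays between 0.985 and 0.997, and the first principal component, with 38.1% of the variance, separated the strains. The marker check went against a pure monocyte sample. Lyz2 and Cd14 of monocytes stood at 13.24 ± 0.09 (SD, n = 5) and 12.63 ± 0.13 in CAF-fed WKY rats, yet Cd3e of T cells stood at 12.23 ± 0.09 and Cd79b of B cells at 12.32 ± 0.08, so the preparation is called blood cells below. In such bulk samples fewer cells of a type and less RNA per cell cannot be told apart.

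Rats named by number below were fed CAF. LEW rat 2 stood apart from its group. Its value of the heat shock gene Hsph1 was 11.73, against 9.11 to 9.45 in the other 4 LEW rats and 8.99 to 9.39 in the WKY rats, and 3 STD rats were high as well. Erythroid and neutrophil genes moved with strain on CAF. The mean log2 signal of 25 erythroid markers was 8.87 to 9.65 in LEW rats and 8.16 to 8.89 in WKY rats, and that of 27 neutrophil markers was 7.85 to 8.51 and 8.26 to 8.90. On STD the erythroid mean was 8.19 to 9.55 in LEW and 8.26 to 8.84 in WKY rats, so the WKY range lay inside the LEW range. Counts are therefore also given with the erythroid mean or the mean of the heat shock genes as a covariate, or without the 4 rats of high Hsph1, an alternative chosen after seeing the data, for many of the lists, and the part of these cells in the differences was not tested.

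**Figure D1:**
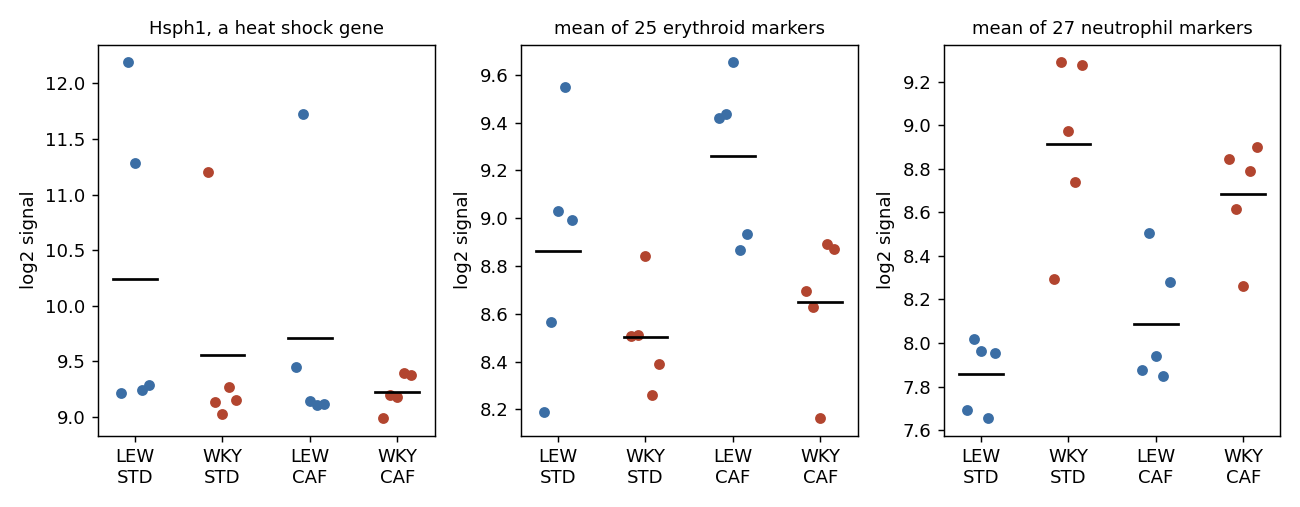
Log2 signal of Hsph1, mean log2 signal of the erythroid markers and mean log2 signal of the neutrophil markers (vertical axes) in each rat of the 4 groups, 1 point per rat and a line at the group mean. LEW rat 2 lies at 11.73 for Hsph1, and the neutrophil mean is higher in most WKY than LEW rats on both diets. The erythroid means of the strains overlap on STD.

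Between CAF-fed WKY and LEW rats, 2185 of 28826 transcripts differed at an adjusted p under 0.05 in limma (7.58%), which is what called means below. Of these, 1223 were higher in WKY rats (4.24%) and 962 lower (3.34%). All differences below are log2 values of WKY minus LEW rats, so that negative ones are lower in WKY rats. Most calls were small. Their median size was 0.40 on the log2 scale, a 1.32-fold difference, and 210 transcripts (0.729%) differed by more than 2-fold, 137 of them higher and 73 lower. Counted as 1 transcript per named gene, 1319 of 14499 genes were called (9.10%), 784 higher (5.41%) and 535 lower (3.69%), and the median difference of all of them was 0.00. These shares are the background against which every gene list below is read. The groups did not overlap for 1635 of the 2185 called transcripts (74.8%), against 7.80% of all transcripts and 9.45% of named genes. Call and overlap rest on the same values, so a lack of overlap is no separate evidence for a called gene. Without LEW rat 2 the calls numbered 2211.

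The means of the STD-fed rats share no array with this contrast. The spread, however, was estimated from the arrays of both diets together, so the calls on CAF and STD are not independent tests. With the STD arrays fitted alone 2388 transcripts were called on STD, and with the CAF arrays alone 2201 on CAF. The overlap of those calls was not counted. In the fit of all arrays, 3247 transcripts were called on STD (11.3%). Of these, 1528 were called on both diets in the same direction, which is 69.9% of the CAF calls and 47.1% of the STD calls. None was called in opposite directions. Of the 210 CAF calls over 2-fold, 204 were also called on STD and all 210 had the same sign there. The 6 that were not called on STD include Lgals5, Car1 and Met, described below, and Gpr15lg and Akr1b8, which were picked out after their values were seen. A test of whether the strain difference itself changed with diet gave no call in any of the 28826 transcripts (0.00%), with 1714 at an unadjusted p under 0.05 and a smallest adjusted p of 0.515.

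**Figure D2:**
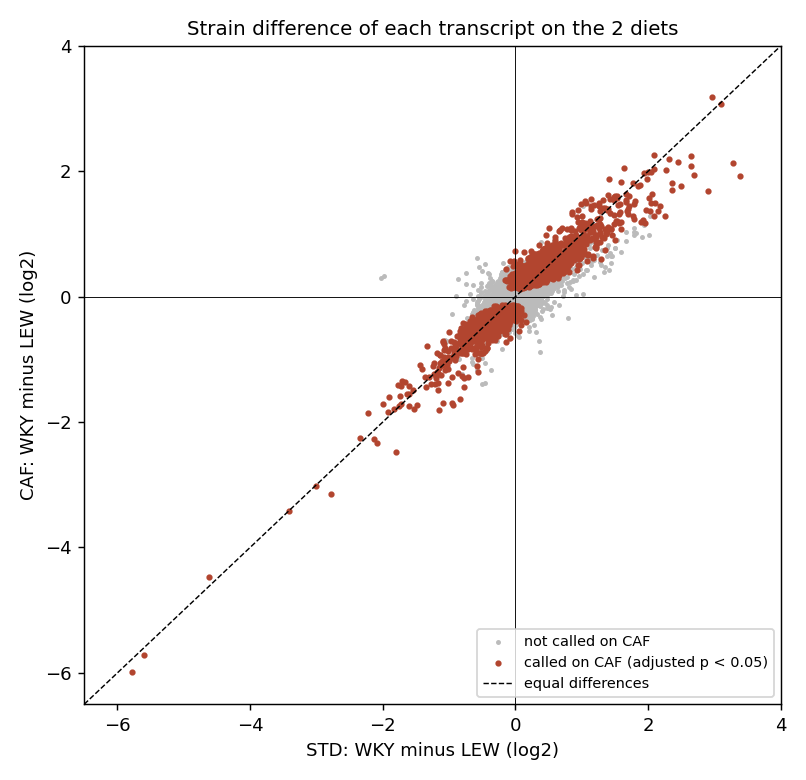
Strain difference on CAF (vertical axis, log2 of WKY minus LEW) against that on STD (horizontal axis, same unit), 1 point per transcript, with the 2185 transcripts called on CAF in red and equal differences on the dashed line. The red points run along the line, and none of the 210 over 2-fold lies in a quadrant of opposite sign.

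Among the 15 largest rises in WKY rats were genes of plasma cells, killer lymphocytes, chemoattractant handling and lipid transport. Jchain, which joins the chains of IgM and IgA and marks plasma cells, was at 10.18, 10.04, 9.92, 10.19 and 10.37 in the 5 WKY rats and at 8.51, 7.79, 8.32, 7.24 and 7.50 in the 5 LEW rats. No LEW rat reached the WKY range, and the difference was 2.27 (SE 0.23, adjusted p = 1.44e-06), or 4.81-fold. Xcl1, a chemokine of NK and CD8 T cells that draws cross-presenting dendritic cells, was at 10.49, 10.19, 10.39, 9.53 and 9.98 in the 5 WKY rats and at 7.43, 7.65, 7.95, 7.96 and 8.90 in the 5 LEW rats. The groups were again apart, by 2.14 (SE 0.34, adjusted p = 2.62e-04). Dok4, an adaptor that binds insulin and Ret receptor kinases, was at 9.40, 9.45, 9.36, 9.76 and 9.57 in the 5 WKY rats and at 7.59, 7.30, 7.60, 7.55 and 7.55 in the 5 LEW rats. Spread was small in both groups, and the difference was 1.99 (SE 0.08, adjusted p = 1.16e-12) on CAF and 2.00 on STD.

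Ccrl2, a receptor that binds chemerin without signalling and presents it to other cells, was at 11.51, 11.69, 11.04, 11.39 and 11.49 in the 5 WKY rats and at 9.97, 9.48, 9.89, 8.98 and 9.40 in the 5 LEW rats, a difference of 1.88 (SE 0.16, adjusted p = 9.01e-08). Abca1, the pump that loads cellular cholesterol onto apolipoprotein A-I, was at 11.02, 11.13, 10.74, 10.71 and 10.91 in the 5 WKY rats and at 9.36, 9.02, 8.93, 9.15 and 9.13 in the 5 LEW rats. No LEW rat came near the WKY rats, and the difference was 1.78 (SE 0.10, adjusted p = 2.33e-10), or 3.44-fold. Slc27a2, a fatty acid transporter and very long chain acyl-CoA synthetase, ranged from 7.64 to 8.07 in WKY and from 5.88 to 6.26 in LEW rats. The groups stood well apart, by 1.77 (SE 0.15, adjusted p = 9.51e-08) on CAF and 2.50 on STD. Tmlhe, the first enzyme of carnitine synthesis, which fatty acids need to enter mitochondria, was higher by 1.82 (SE 0.10, adjusted p = 1.20e-10) with ranges of 8.88 to 9.36 and 7.10 to 7.54. P2ry13, a receptor for ADP, ranged from 10.07 to 11.21 in WKY and from 8.75 to 9.76 in LEW rats, a difference of 1.81 (SE 0.36, adjusted p = 0.00239). The rest of the 15 were Acod1, Car5b, Plk2, Pglyrp1, Fads1, Naip6 and Retnlg, between 3.07 for Acod1 and 1.93 for Retnlg, and only Retnlg overlapped between the groups.

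Among the 15 largest falls, Pira2, an activating paired immunoglobulin-like receptor of myeloid cells, was at 8.03, 7.42, 7.20, 7.73 and 7.98 in the 5 WKY rats and at 9.70, 9.64, 9.70, 9.08 and 9.25 in the 5 LEW rats. No WKY rat came near the LEW range, and the difference was −1.80 (SE 0.22, adjusted p = 1.62e-05). Met, the receptor for hepatocyte growth factor, was at 7.27, 7.17, 6.84, 6.81 and 7.38 in the 5 WKY rats and at 8.79, 9.06, 7.52, 8.42 and 10.14 in the 5 LEW rats. The LEW rats were widely spread, with rat 5 the highest, while the WKY rats lay close together, and the difference was −1.69 (SE 0.41, adjusted p = 0.0126) on CAF and −1.10 (adjusted p = 0.0980) on STD. Mid1, a microtubule-bound ubiquitin ligase, was at 6.04, 6.06, 6.26, 6.14 and 6.48 in the 5 WKY rats and at 7.85, 7.63, 7.65, 8.02 and 7.82 in the 5 LEW rats, a difference of −1.60 (SE 0.18, adjusted p = 3.54e-06).

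Sv2a, a synaptic vesicle protein, differed, at −1.49 (SE 0.12, adjusted p = 5.70e-08) with ranges of 7.11 to 7.49 in WKY and 8.42 to 9.03 in LEW rats, and Prg4, the lubricin of joint fluid, which macrophages can also make, at −1.48 (SE 0.22, adjusted p = 1.20e-04). Lgals5, a galectin of rat reticulocytes, was at 9.84, 9.58, 8.16, 10.30 and 10.18 in the 5 WKY rats and at 11.62, 11.76, 11.88, 10.32 and 10.64 in the 5 LEW rats. LEW rats 4 and 5 came close to the WKY range, and the call of −1.63 (adjusted p = 0.0405) was lost on leaving out LEW rat 1, 2 or 3, or WKY rat 1, 2 or 3 (adjusted p = 0.0606 to 0.113). The remaining falls were Serpinb11 (−5.71), Klri2, Rhd, Lyve1, Xk, Acadsb, Icam2, Klrc3 and Ldha, the last on 1 of its probe sets, and the groups did not overlap in any of them.

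**Figure D3:**
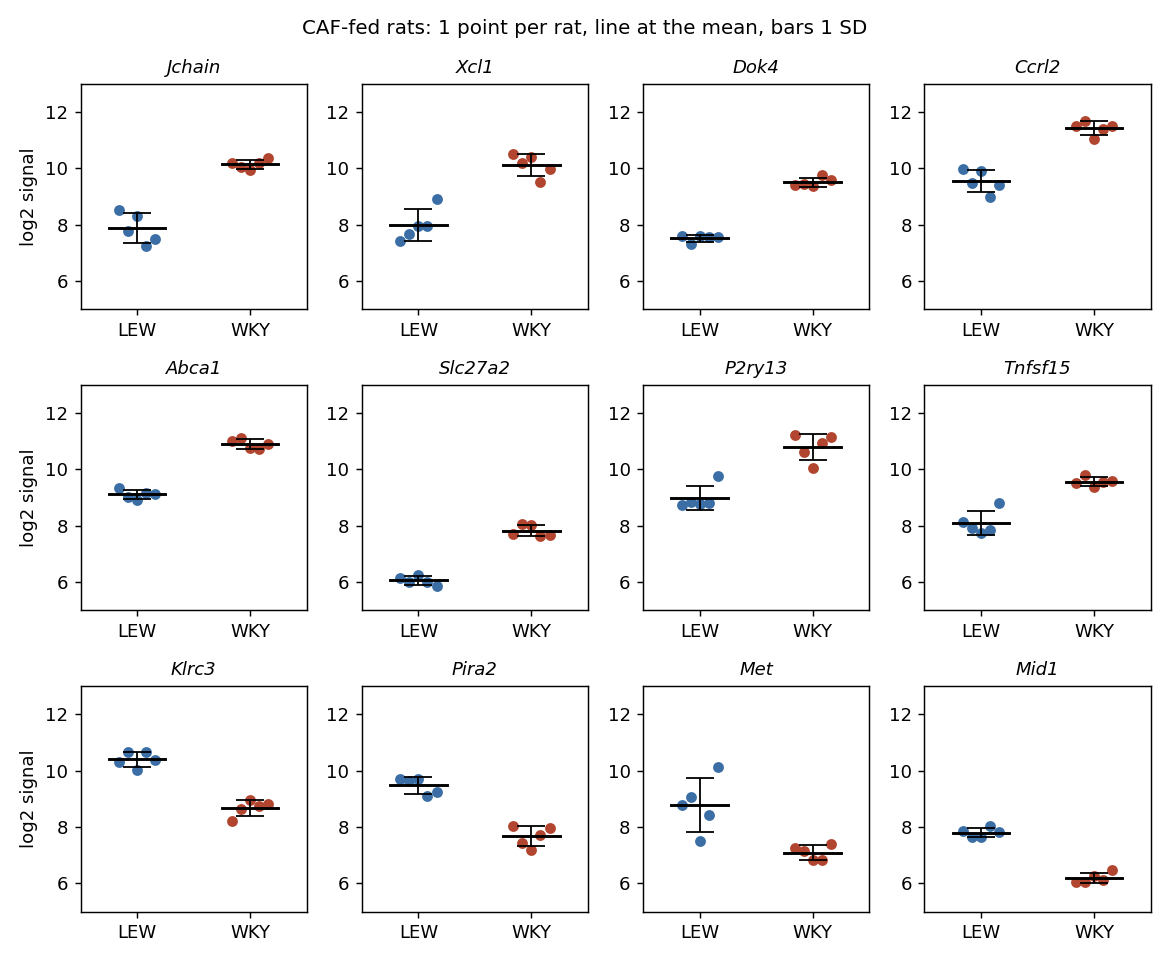
Log2 signal (vertical axes) of 12 genes in CAF-fed LEW and WKY rats, 1 point per rat, with a line at the mean and bars of 1 SD (n = 5). Jchain, Xcl1, Dok4, Ccrl2, Abca1, Slc27a2, P2ry13 and Tnfsf15 are higher and Klrc3, Pira2, Met and Mid1 lower in WKY rats, and the groups overlap in none of the 12.

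Of all the gene lists, that of interferon-stimulated genes had the most members called higher in WKY rats. Their promoters and those of chemokines are shown first. Interferon-stimulated genes often carry a core of GAAA, any 2 bases and GAAA again, which IRF factors and ISGF3 read and which appears as TTTC, any 2 bases and TTTC on the other strand. NF-κB reads GGG, any 2 bases and TTTCC, or GGAAA, any 2 bases and CCC on the other strand. Both were searched on both strands in the 250 bases before the start of 11945 named genes that matched a RefSeq promoter (build GRCr8, from the BN reference strain, so strain variants are not seen). The first 5 windows of 60 bases hold the interferon core and the last 4 the NF-κB core, each 5′ to 3′ on the strand of its gene and upstream of the start, with matches in capitals. Irf7, Ifit3, Oas1a and Gbp2 were called higher in WKY rats while Ifi44 was not called, and of the second set Cxcl1, Cxcl2 and Nfkbia were called higher and Cxcl6 lower. The call of Cxcl2 lay just under the threshold, and those of Cxcl1 and Nfkbia were lost without some single rats, as given below. Ifit3, Ifi44 and Cxcl2 are shown for their letters and were picked after their values were seen.
Oas1a: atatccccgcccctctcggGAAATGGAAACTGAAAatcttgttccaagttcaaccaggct
Ifit3: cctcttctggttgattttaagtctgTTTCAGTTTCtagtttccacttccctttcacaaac
Irf7: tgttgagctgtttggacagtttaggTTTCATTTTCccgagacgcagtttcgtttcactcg
Gbp2: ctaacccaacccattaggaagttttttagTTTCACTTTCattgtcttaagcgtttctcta
Ifi44: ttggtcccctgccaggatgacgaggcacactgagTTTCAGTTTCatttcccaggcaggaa
Cxcl1: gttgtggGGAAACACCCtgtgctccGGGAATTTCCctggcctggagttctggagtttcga
Cxcl2: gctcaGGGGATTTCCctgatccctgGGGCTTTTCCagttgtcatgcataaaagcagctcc
Cxcl6: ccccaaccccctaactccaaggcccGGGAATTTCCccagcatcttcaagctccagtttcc
Nfkbia: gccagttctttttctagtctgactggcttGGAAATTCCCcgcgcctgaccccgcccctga
These windows lie at chr12:41330406-41330465 (+ strand) for Oas1a, chr1:241527257-241527316 (+ strand) for Ifit3, chr1:205800058-205800117 (- strand) for Irf7, chr2:234005667-234005726 (+ strand) for Gbp2, chr2:243303841-243303900 (- strand) for Ifi44, chr14:17479371-17479430 (- strand) for Cxcl1, chr14:17467275-17467334 (- strand) for Cxcl2, chr14:17596471-17596530 (- strand) for Cxcl6 and chr6:78597073-78597132 (- strand) for Nfkbia. In Oas1a the matches overlap each other.

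The interferon core was present in 5.81% of the 637 genes higher in WKY rats that had a promoter, in 2.90% of the 449 lower ones and in 2.96% of the 10859 not called, against 3.29% of all 27457 promoters in the table. Of the 43 measured interferon-stimulated genes 29 matched a promoter, with 13 of the 22 higher ones and 15 of the 20 not called. The interferon core stood in 9 of these 13 and in 10 of these 15, so that it was about as frequent in both. The NF-κB core was present in 3.14% of the higher genes, 1.34% of the lower ones and 1.39% of those not called, against 1.28% of all promoters. The AP-1 core TGACTCA was spread evenly, at 3.61%, 3.79% and 3.41%, against 3.98% of all promoters. A match describes the letters of a window and is not a measured site.

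The interferon-stimulated list had 43 measured members, of which 22 were higher on the WKY side, 1 was lower and 20 were not called, with a median difference of 0.39 on CAF and 0.72 on STD. Ifih1, which senses long double-stranded RNA in the cytosol, was at 10.03, 10.35, 10.02, 10.02 and 9.89 in the 5 WKY rats and at 9.04, 9.16, 8.58, 8.69 and 9.37 in the 5 LEW rats, higher by 1.10 (SE 0.15, adjusted p = 3.69e-05) with no overlap. Ifit2, which binds foreign RNA, was higher by 1.09 (adjusted p = 1.67e-05), and Zbp1, a sensor of Z-form nucleic acids that can trigger necroptosis, by 0.39 (adjusted p = 1.14e-04). The call of the single lower member ended without any of LEW rats 1, 2, 3 and 5 or WKY rats 2 to 5, which left 0. Abundant members that were not called include Trim25, at 0.05 (95% interval −0.08 to 0.17, adjusted p = 0.793), and Ifi47, at 0.05 (95% interval −0.19 to 0.28, adjusted p = 0.900).

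Among 21 regulators and sensors of the interferon system, 7 were higher and none lower, with a median of 0.14. Irf7, the factor that amplifies type I interferon, was at 10.30, 10.15, 9.72, 10.54 and 10.19 in the 5 WKY rats and at 9.27, 9.37, 9.02, 8.57 and 8.77 in the 5 LEW rats. Every WKY rat exceeded every LEW rat, by 1.18 (SE 0.18, adjusted p = 1.68e-04) on average. Tlr3, the endosomal receptor for double-stranded RNA, was low in both strains and higher in WKY rats by 0.33 (adjusted p = 0.00418). Stat2, a subunit of ISGF3, was higher by 0.49 (adjusted p = 3.14e-04). Irf8, which shapes the monocyte lineage, was higher by 0.41 (adjusted p = 0.0165), a call lost on leaving out LEW rat 4 (adjusted p = 0.0525). Jak1 and Ifnar1, the kinase and receptor chain upstream, were not called, at 0.00 (95% interval −0.09 to 0.09, adjusted p = 0.994) and 0.03 (95% interval −0.09 to 0.14, adjusted p = 0.881). The count of higher members was 3 without LEW rat 4, 4 without WKY rat 2 or 5, and 4 with the erythroid covariate.

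The guanylate-binding proteins and immunity-related GTPases, which attack vacuoles of intracellular microbes, had 4 measured members, of which 3 were higher. Gbp2 was at 11.29, 11.51, 11.07, 11.65 and 11.56 in the 5 WKY rats and at 10.66, 10.58, 10.47, 10.35 and 10.53 in the 5 LEW rats, a difference of 0.90 (SE 0.10, adjusted p = 2.60e-06), and Gbp5 was higher by 0.89 (adjusted p = 1.74e-05) and Irgm by 0.70 (adjusted p = 0.00238). None of these 3 overlapped between strains, nor did 74.8% of all CAF calls. In the Schlafen family, which regulates growth and antiviral defence of leukocytes, 2 of 4 members were higher. Slfn9 was at 10.64, 10.58, 10.63, 10.53 and 10.59 in the 5 WKY rats and at 9.45, 9.39, 9.26, 9.10 and 9.13 in the 5 LEW rats. The difference of 1.33 (SE 0.07, adjusted p = 2.01e-10) was nearly the same on STD, at 1.43, and Slfn4 was higher by 0.82 (adjusted p = 2.68e-04), whereas Slfn2 was at 0.16 (95% interval −0.01 to 0.32, adjusted p = 0.301). Members of these families have near-identical copies whose signals the array may not separate.

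The machinery of MHC class I, which presents peptides to CD8 T cells, had 11 of 27 members higher and 1 lower, with a median of 0.17. Tap1, a chain of the peptide pump of the endoplasmic reticulum, was at 9.82, 9.82, 9.57, 9.83 and 9.79 in the 5 WKY rats and at 9.43, 9.49, 9.14, 9.00 and 9.17 in the 5 LEW rats, higher by 0.52 (SE 0.09, adjusted p = 8.69e-04). The immunoproteasome subunit Psmb9 was higher by 0.44 (adjusted p = 0.00408), the lipid-presenting molecule Cd1d1 by 0.36 (adjusted p = 9.37e-04), and the class I genes RT1-S3 and RT1-CE7 by 0.45 (adjusted p = 0.00284) and 0.29 (adjusted p = 0.00211). Erap1, which trims peptides in the endoplasmic reticulum, went the other way, at 9.46, 9.72, 9.93, 9.40 and 9.48 in the 5 WKY rats and at 10.38, 10.35, 10.20, 10.19 and 10.23 in the 5 LEW rats. It was lower in every WKY rat, at −0.67 (SE 0.08, adjusted p = 1.81e-05). The light chain B2m stood at 13.83 ± 0.03 and 13.83 ± 0.02 and was not called, at 0.00 (95% interval −0.08 to 0.07, adjusted p = 0.978). Without WKY rat 4, 7 members were higher. Whether the probes read strain variants of these genes was not tested.

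The class II list, which also holds costimulatory ligands, had 1 of 17 higher and 1 lower, or 11.8% called against 9.10% of named genes. Both calls were costimulatory ligands, and none of the other members was called. Without LEW rat 1, 2 were higher, and none was without LEW rat 3, or WKY rat 1, or with the erythroid covariate. Cd80, which engages CD28 and CTLA4, was at 10.73, 10.88, 10.43, 10.71 and 10.92 in the 5 WKY rats and at 11.93, 11.67, 11.63, 11.36 and 11.57 in the 5 LEW rats. The strains were separated at −0.90 (SE 0.11, adjusted p = 7.15e-06). Cd86, its partner ligand, was higher by 0.38 (adjusted p = 0.0211), a call lost on leaving out LEW rat 3, or WKY rat 1 (adjusted p = 0.0501 to 0.0707). The invariant chain Cd74 was at 0.05 (95% interval −0.01 to 0.12, adjusted p = 0.424).

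Chemokines were called mostly in 1 direction and their receptors in both. Of 26 measured ligands, 6 were higher in WKY rats and 1 was lower, with a median of 0.14. Ccl2, also known as MCP-1, which recruits monocytes through Ccr2, was at 13.66, 13.44, 13.36, 13.50 and 13.45 in the 5 WKY rats and at 12.63, 12.25, 12.87, 13.04 and 13.44 in the 5 LEW rats. LEW rat 5 lay inside the WKY range, and the difference was 0.64 (SE 0.16, adjusted p = 0.0132). Cxcl1, a neutrophil attractant, was at 11.59, 11.44, 10.86, 11.58 and 11.52 in the 5 WKY rats and at 10.77, 10.20, 9.73, 9.55 and 10.53 in the 5 LEW rats, and its difference of 1.24 (adjusted p = 0.0206) lost its call on leaving out LEW rat 3 or 4, or WKY rat 4 (adjusted p = 0.0506 to 0.0627). Ccl4, a chemokine of activated monocytes, differed by 0.84 (adjusted p = 0.0424) and Ccl5 by 0.36 (adjusted p = 0.0312), and these calls were lost on leaving out LEW rat 1, 2 or 3, or WKY rat 1, 2, 3, 4 or 5 (adjusted p = 0.0585 to 0.105) and on leaving out LEW rat 1, 3 or 5, or WKY rat 1, 2 or 3 (adjusted p = 0.0598 to 0.0906). Cxcl6, another neutrophil attractant, was low in both strains and lower in WKY rats, at −0.47 (adjusted p = 0.00424). The number of higher ligands was 2 without LEW rat 3, 3 without LEW rat 1, or WKY rat 1, 2 or 4, 4 without LEW rat 2, and 2 with the erythroid covariate.

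Among 19 chemokine receptors, 4 were higher and 6 lower, and 9 of the 10 did not overlap, against 74.8% of all CAF calls. Ccr6, the receptor for Ccl20 on memory T and B cells, was at 7.89, 7.74, 7.88, 7.84 and 7.78 in the 5 WKY rats and at 8.77, 8.61, 8.39, 8.67 and 8.70 in the 5 LEW rats, lower at −0.80 (SE 0.09, adjusted p = 2.69e-06). Cxcr3, which brings T and NK cells to interferon-induced chemokines, was at 8.80, 8.79, 8.79, 8.84 and 8.80 in the 5 WKY rats and at 9.34, 9.28, 9.18, 9.48 and 9.43 in the 5 LEW rats. The WKY rats lay close together and below all LEW rats, at −0.54 (SE 0.08, adjusted p = 2.30e-04). Ccr7, which guides cells to lymph nodes, was lower at −0.20 (adjusted p = 0.00386), and Ccr2 and Cx3cr1, which separate the classical from the patrolling monocytes, were both lower, at −1.38 and −1.28. Abundant Cxcr4 was not called, at −0.07 (95% interval −0.18 to 0.05, adjusted p = 0.603).

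Of 28 measured cytokines and growth factors, 12 were higher in WKY rats and none was lower, with a median of 0.42 on CAF and 0.61 on STD, where all 12 were called as well. Il1b, the main inflammasome product, was at 13.53, 13.46, 13.31, 13.47 and 13.45 in the 5 WKY rats and at 13.15, 12.98, 13.10, 12.75 and 13.16 in the 5 LEW rats. It was among the brightest transcripts, and every WKY rat was higher, by 0.41 (SE 0.09, adjusted p = 0.00420). Pdgfb, a growth factor for mesenchymal cells, was at 8.47, 8.28, 8.30, 8.08 and 8.08 in the 5 WKY rats and at 7.37, 7.63, 7.29, 7.18 and 7.23 in the 5 LEW rats, a difference of 0.90 (SE 0.11, adjusted p = 1.76e-05). Il1rn, the natural antagonist of interleukin 1, was not called, at 0.39 (95% interval 0.09 to 0.68, adjusted p = 0.119). Tgfb1 and Ebi3 were not called either, at 0.14 (95% interval 0.03 to 0.25, adjusted p = 0.136) and −0.17 (95% interval −0.52 to 0.19, adjusted p = 0.703). With the erythroid covariate 8 members were higher.

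The cytokine receptors were split, 3 higher and 3 lower of 28. Il18r1, a chain of the receptor for interleukin 18, was at 9.22, 9.53, 9.31, 9.42 and 9.42 in the 5 WKY rats and at 10.01, 9.67, 9.62, 9.93 and 9.86 in the 5 LEW rats, lower at −0.44 (SE 0.10, adjusted p = 0.00796), while Il18 itself was higher by 0.72 (adjusted p = 0.00434). Il7r, which T cells need to survive, was lower at −0.42 (adjusted p = 0.0125), and Il2rb, shared by the interleukin 2 and 15 receptors, was higher by 0.45 (adjusted p = 0.00890). In the TNF superfamily, 2 of 25 were higher and 2 lower, of which 1 was left without LEW rat 1, or WKY rat 1 or 3, or with the erythroid covariate, while 5 were lower with array weights. Tnfsf15, or TL1A, which costimulates T cells through DR3, was at 9.51, 9.82, 9.37, 9.55 and 9.61 in the 5 WKY rats and at 8.14, 7.94, 7.75, 7.85 and 8.81 in the 5 LEW rats. The groups did not meet, and the difference was 1.47 (SE 0.16, adjusted p = 3.97e-06). Cd27, a costimulatory receptor of lymphocytes, was at 10.71, 10.57, 10.63, 10.44 and 10.27 in the 5 WKY rats and at 11.55, 10.86, 11.48, 11.38 and 11.40 in the 5 LEW rats, lower at −0.81 (SE 0.16, adjusted p = 0.00196).

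None of the 15 Toll-like receptors and adaptors in this list was called on CAF, with medians of 0.13 on CAF and 0.21 on STD. Tlr3, which was called higher, is counted among the interferon regulators and sensors above. Tlr2, which senses bacterial lipoproteins, was at 0.37 (95% interval 0.10 to 0.65, adjusted p = 0.0938), Cd14 at −0.16 (95% interval −0.40 to 0.09, adjusted p = 0.544) and Irak3 at 0.15 (95% interval 0.03 to 0.28, adjusted p = 0.149). Without WKY rat 3, 4 of them were called higher, and 1 was without LEW rat 1 or 5. Of 17 subunits and regulators of NF-κB, 2 were higher, the subunit Nfkb2 by 0.43 (adjusted p = 0.00387) and the inhibitor Nfkbia by 0.38 (adjusted p = 0.0239), the latter a call lost on leaving out LEW rat 4 or 5, or WKY rat 1, 2 or 5 (adjusted p = 0.0519 to 0.0731). Rela and Nfkb1 were at 0.14 (95% interval 0.04 to 0.24, adjusted p = 0.0987) and 0.20 (95% interval 0.04 to 0.36, adjusted p = 0.132). This count was 7 with array weights, 6 without the 4 rats of high Hsph1, 5 with the heat shock covariate, 6 without LEW rat 2, 5 without WKY rat 3, and 1 without LEW rat 4 or 5, or WKY rat 1, 2 or 5.

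Early response genes were higher in 9 of 30 cases and lower in 1. With the heat shock covariate 15 were higher, and 14 were without the 4 rats of high Hsph1. Maff, a small basic zipper factor, was at 9.40, 9.22, 8.79, 9.20 and 9.10 in the 5 WKY rats and at 8.62, 8.55, 8.03, 7.74 and 8.20 in the 5 LEW rats, a difference of 0.91 (SE 0.17, adjusted p = 0.00168). Dusp2, which dephosphorylates MAP kinases in the nucleus, was higher by 0.51 (adjusted p = 0.00161), whereas Dusp6, a cytosolic phosphatase specific to ERK, was at 9.14, 9.22, 9.19, 9.38 and 9.44 in the 5 WKY rats and at 9.74, 10.08, 9.77, 9.73 and 9.89 in the 5 LEW rats. It was lower in all WKY rats, at −0.57 (SE 0.11, adjusted p = 0.00188).

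In the inflammasome list, 1 of 16 was higher and 2 were lower, of which 1 was left with the erythroid covariate. Casp1, the protease that matures interleukins 1β and 18, was at 9.72, 9.75, 9.42, 9.50 and 9.78 in the 5 WKY rats and at 10.05, 9.81, 10.05, 10.12 and 10.03 in the 5 LEW rats. All WKY values lay below, at −0.38 (SE 0.08, adjusted p = 0.00589), although Il1b and Il18 were higher. Nlrx1, a mitochondrial member of the NOD-like family that restrains antiviral signalling, was at 8.11, 7.92, 7.77, 8.02 and 8.06 in the 5 WKY rats and at 8.92, 8.68, 8.85, 8.85 and 8.75 in the 5 LEW rats, lower at −0.83 (SE 0.14, adjusted p = 6.40e-04). Arg1, which competes with nitric oxide synthase for arginine, was lower at −0.58 (adjusted p = 0.00176).

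Fc receptors and myeloid lectins, through which phagocytes bind antibody and microbial sugars, moved both ways. Of 11 Fc receptors 1 was higher and 2 were lower, with 1 lower without LEW rat 4 or 5, or WKY rat 2, 3 or 4. Fcgr3a, the CD16 of NK cells and patrolling monocytes, was at 9.36, 9.47, 8.58, 9.05 and 9.12 in the 5 WKY rats and at 8.03, 7.46, 7.89, 7.61 and 7.56 in the 5 LEW rats, higher by 1.40 (SE 0.21, adjusted p = 1.19e-04). Fcer2, the low-affinity IgE receptor of B cells, was at 8.81, 8.71, 8.51, 8.89 and 9.07 in the 5 WKY rats and at 9.99, 10.65, 9.65, 9.59 and 9.64 in the 5 LEW rats, lower at −1.11 (SE 0.25, adjusted p = 0.00696). Clec12a, an inhibitory receptor that senses dead cells, was at 9.86, 9.97, 9.27, 9.39 and 9.83 in the 5 WKY rats and at 8.66, 8.62, 8.88, 8.65 and 8.58 in the 5 LEW rats. It was higher in each WKY rat, by 0.99 (SE 0.12, adjusted p = 1.55e-05). Clec4a2, an inhibitory lectin, was lower at −0.89 (adjusted p = 0.00894). Clec4e, which binds mycobacterial cord factor, was higher by 0.46 (adjusted p = 0.0346), a call lost on leaving out LEW rat 1, 2, 3 or 4, or WKY rat 1, 4 or 5 (adjusted p = 0.0538 to 0.101). In all, 3 of 30 lectins and paired receptors were higher and 2 lower, and 1 was higher without LEW rat 2 or 4, or WKY rat 4 or 5, and 1 lower with the erythroid covariate. Abundant Tyrobp and Lilrb4 were not called, at 0.10 (95% interval −0.08 to 0.27, adjusted p = 0.639) and −0.03 (95% interval −0.16 to 0.10, adjusted p = 0.897).

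The GIMAP genes, small GTPases that keep lymphocytes alive, formed the list with the highest share of falls. Of 7 measured members, 6 were lower and none was higher, with no overlap in any of the 6, as in 74.8% of all CAF calls. Gimap4 was at 11.37, 11.34, 11.40, 11.24 and 11.15 in the 5 WKY rats and at 11.91, 11.99, 11.99, 11.92 and 11.92 in the 5 LEW rats, lower at −0.65 (SE 0.06, adjusted p = 4.71e-07). Gimap7 was at 10.33, 10.29, 10.31, 10.26 and 10.23 in the 5 WKY rats and at 10.77, 10.73, 10.78, 10.84 and 10.86 in the 5 LEW rats, lower at −0.51 (SE 0.06, adjusted p = 6.51e-06). Gimap9, Gimap1 and Gimap5 were lower at −0.54, −0.43 and −0.38. Gimap6 was lower at −0.27 (adjusted p = 0.0195), a call lost on leaving out LEW rat 4 or 5, or WKY rat 5 (adjusted p = 0.0559 to 0.0642), and Gimap8 was not called, at −0.29 (95% interval −0.54 to −0.05, adjusted p = 0.150). Gimap5 is the gene whose loss causes lymphopenia in the BB rat.

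In the RefSeq order of 14470 placed genes, the 6 GIMAP genes stand next to Tmem176b and Tmem176a, a pair of membrane channels of dendritic cells and monocytes, and all 8 were called. Tmem176a was at 9.03, 9.00, 8.55, 8.57 and 8.86 in the 5 WKY rats and at 7.73, 7.54, 7.75, 6.87 and 7.24 in the 5 LEW rats. It was higher in every WKY rat, by 1.38 (SE 0.16, adjusted p = 7.97e-06), and Tmem176b was higher by 1.36 (SE 0.18, adjusted p = 4.40e-05). Direction thus switched within the run of neighbours, and on STD the same genes had the same signs.

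**Figure D4:**
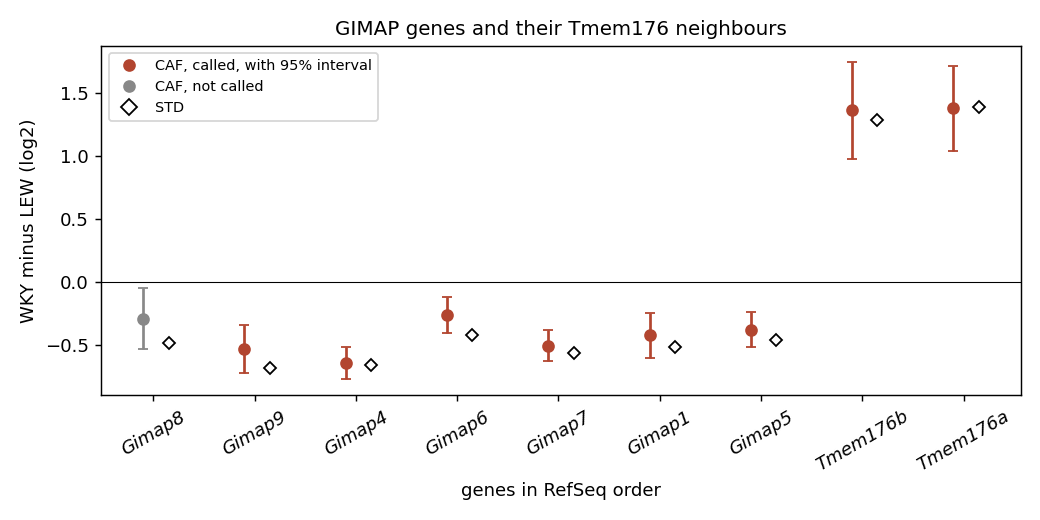
Strain difference (vertical axis, log2 of WKY minus LEW) of the GIMAP genes and their neighbours in RefSeq order, with the 95% interval on CAF and the value on STD as open diamonds. The GIMAP genes lie between −0.65 and −0.27 on CAF, and Tmem176b and Tmem176a at 1.36 and 1.38.

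Runs of at least 3 neighbouring genes that were all called numbered 14 and held 52 genes, and 9 of them held both directions. As 9.10% of named genes were called, scattered calls can also form runs, and how many they would form was not tested. The NK gene complex gave 1 of the 14 runs, with Klrd1, Klrk1, Klrc3 and Klrc2 in order. In the whole list of NK receptors, 5 of 25 were higher and 5 lower, with a median of 0.10 and 18 positive differences. Klrd1, or CD94, pairs with the Klrc receptors to read class I peptides, and it was at 8.07, 8.46, 8.61, 8.15 and 8.42 in the 5 WKY rats and at 9.26, 9.36, 9.11, 9.94 and 9.71 in the 5 LEW rats, lower at −1.14 (SE 0.17, adjusted p = 1.19e-04). Klrc2, an activating partner, was lower at −1.39 (SE 0.19, adjusted p = 5.45e-05). Klrk1, or NKG2D, which reads stress ligands and lies between them, was higher, by 0.39 (SE 0.09, adjusted p = 0.00864). Another run held Icam2, Tex2, Pecam1 and Milr1. Pecam1, a junction molecule that leukocytes use to cross vessel walls, was at 10.67, 10.69, 10.72, 10.77 and 10.74 in the 5 WKY rats and at 9.98, 9.79, 9.78, 9.90 and 9.89 in the 5 LEW rats, higher by 0.85 (SE 0.05, adjusted p = 2.33e-10), while Icam2, another ligand of leukocyte integrins, was lower at −1.72. Other runs held the class I genes RT1-O1, RT1-N3 and RT1-S3, all higher, and Plet1, Pts, Bco2 and Il18, also all higher. Lgals1, a galectin that dampens T cells, led a run with Nol12 and Triobp and was at 10.88, 10.59, 10.30, 10.51 and 10.58 in the 5 WKY rats and at 9.72, 9.43, 9.53, 9.01 and 9.13 in the 5 LEW rats, a difference of 1.21 (SE 0.14, adjusted p = 7.94e-06). The calls of RT1-N3, Plet1 and Triobp were lost on leaving out LEW rat 2, 4 or 5, or WKY rat 1, 2 or 4 (adjusted p = 0.0556 to 0.0832), on leaving out LEW rat 3 (adjusted p = 0.0551) and on leaving out LEW rat 1, 2, 3, 4 or 5, or WKY rat 2, 3, 4 or 5 (adjusted p = 0.0523 to 0.129), respectively.

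Effectors of killer lymphocytes were higher in 7 of 16 cases, and none was lower, although 1 was without LEW rat 2 or 5. Gzma, a granule protease, was at 9.99, 9.99, 10.27, 10.13 and 9.82 in the 5 WKY rats and at 8.69, 8.99, 7.95, 8.29 and 8.21 in the 5 LEW rats. WKY and LEW rats were separated by 1.61 (SE 0.20, adjusted p = 1.48e-05). Gzmm, a granzyme of innate killer cells, was higher by 0.96 (SE 0.14, adjusted p = 1.00e-04), and Nkg7, a membrane protein of cytotoxic granules, by 0.59 (SE 0.10, adjusted p = 6.40e-04). Prf1, the pore-forming protein of the same granules, was higher by 0.38 (adjusted p = 0.0305), a call lost on leaving out LEW rat 1, 3 or 5, or WKY rat 2, 3 or 4 (adjusted p = 0.0617 to 0.0911). Gzmb was not called, at 0.94 (95% interval 0.31 to 1.58, adjusted p = 0.0673).

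In lipid handling, Abca1 and Slc27a2 were described above. Of 33 genes of uptake, storage and efflux, 4 were higher and 4 lower. Dgat2, which completes triglycerides, was at 11.28, 10.61, 10.19, 10.97 and 11.12 in the 5 WKY rats and at 9.09, 10.16, 9.05, 8.48 and 9.93 in the 5 LEW rats. LEW rat 2 was the highest of its widely spread group, just under the lowest WKY rat, and the difference was 1.49 (SE 0.34, adjusted p = 0.00854). Lower were Soat1, which esterifies cholesterol for storage, at −0.43 (SE 0.06, adjusted p = 9.57e-05), Scarb2, a lysosomal relative of Cd36, at −0.54 (SE 0.09, adjusted p = 3.41e-04), and Lrp1, a receptor for lipoprotein remnants, at −0.55 (adjusted p = 0.00744). Plin2, the coat protein of lipid droplets, was not called, at −0.16 (95% interval −0.40 to 0.07, adjusted p = 0.493). Without LEW rat 4, 2 members were higher.

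In fatty acid synthesis and desaturation 6 of 22 genes were higher and none lower. Fads2, the partner desaturase of Fads1 in making arachidonic acid, was at 8.71, 8.76, 8.59, 9.00 and 8.93 in the 5 WKY rats and at 8.39, 7.95, 8.41, 8.45 and 8.41 in the 5 LEW rats, higher by 0.47 (SE 0.11, adjusted p = 0.00742) on CAF and 0.10 (adjusted p = 0.649) on STD. Elovl6, which lengthens palmitate, was at 9.13, 9.98, 10.06, 9.93 and 9.96 in the 5 WKY rats and at 9.12, 9.34, 9.29, 9.36 and 9.19 in the 5 LEW rats. WKY rat 1 lay with the LEW rats, and the call of 0.55 (adjusted p = 0.0207) was lost on leaving out LEW rat 1, or WKY rat 2, 3, 4 or 5 (adjusted p = 0.0540 to 0.0609). Acsl3 and Acsl5, which activate fatty acids, were higher by 0.27 (adjusted p = 0.0140) and 0.33 (adjusted p = 0.00413). With the erythroid covariate 3 members were higher. Cholesterol synthesis and uptake had 1 of 23 called, lanosterol synthase (Lss) by 0.46 (adjusted p = 0.00969), and none with the erythroid covariate, and its regulator Srebf2 was at 0.00 (95% interval −0.18 to 0.17, adjusted p = 0.992).

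In fatty acid oxidation 2 of 34 were higher and 3 lower. Acaa2, the thiolase of the mitochondrial spiral, ranged from 8.58 to 9.12 in WKY and from 7.93 to 8.33 in LEW rats, higher by 0.78 (SE 0.13, adjusted p = 5.40e-04). Ucp2, a mitochondrial carrier, was lower at −0.34 (adjusted p = 0.0124). Cpt1a, the gate of the pathway, was not called, at 0.05 (95% interval −0.27 to 0.38, adjusted p = 0.923). The list median was 0.00, and that of 64 genes of oxidative phosphorylation was −0.01 with 1 higher and 1 lower. The lower count was 3 without LEW rat 2, without the 4 rats of high Hsph1 or with array weights, 2 without WKY rat 1 and 0 without any other rat except LEW rat 3.

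In the glucose list the 3 called transporters were higher and the 3 called enzymes lower, of which Hk2 alone was left with the erythroid covariate. Slc2a4, the insulin-regulated transporter GLUT4, was at 9.37, 9.59, 9.41, 9.74 and 9.82 in the 5 WKY rats and at 8.20, 7.74, 8.19, 8.15 and 7.97 in the 5 LEW rats. The strains were separated by 1.54 (SE 0.15, adjusted p = 7.69e-07), and Slc2a6, a lysosomal transporter induced in activated macrophages, by 0.87 (SE 0.17, adjusted p = 0.00229). Lower were Hk2, which traps glucose in the cell, Eno1 and Pkm, late enzymes of glycolysis, at −0.43 (adjusted p = 4.77e-04), −0.18 (adjusted p = 0.0217) and −0.25 (adjusted p = 0.0418). The last 2 calls were lost on leaving out LEW rat 3 or 5, or WKY rat 2 or 3 (adjusted p = 0.0504 to 0.0661) for Eno1 and on leaving out LEW rat 1, 3, 4 or 5, or WKY rat 1, 2, 3 or 4 (adjusted p = 0.0511 to 0.114) for Pkm. Without LEW rat 3 or 5, or WKY rat 2 or 3, 1 enzyme was lower. Insulin and nutrient signalling had 2 of 29 higher and 5 lower, with 1 higher under the erythroid covariate. Insr, the insulin receptor, was at 9.35, 9.32, 9.34, 9.36 and 9.33 in the 5 WKY rats and at 9.58, 9.76, 9.75, 9.83 and 9.68 in the 5 LEW rats. It was lower in all WKY rats, at −0.38 (SE 0.07, adjusted p = 7.29e-04), as were Igf1r, the receptor for insulin-like growth factor 1, at −0.42 (adjusted p = 0.00211), the regulatory subunit Pik3r1 at −0.22 (adjusted p = 0.00421), the AMPK subunit Prkag1 at −0.32 (adjusted p = 3.36e-04) and the stress sensor Sesn3 at −0.34 (adjusted p = 0.00432). Nampt, which makes NAD from nicotinamide, was at 10.27, 10.47, 10.08, 10.48 and 10.51 in the 5 WKY rats and at 9.87, 9.91, 9.67, 9.68 and 9.87 in the 5 LEW rats, higher by 0.56 (SE 0.09, adjusted p = 2.08e-04).

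In the citric acid cycle list 5 of 22 genes were higher and none lower, but the median was −0.006 and 13 of the 22 had a negative difference. Of the 5 calls, 2 were also made on STD. Idh1, the cytosolic isocitrate dehydrogenase that supplies NADPH, was at 10.13, 10.35, 9.95, 10.44 and 10.32 in the 5 WKY rats and at 9.25, 9.19, 9.53, 9.53 and 9.27 in the 5 LEW rats, a difference of 0.89 (SE 0.12, adjusted p = 4.72e-05). Idh2, its mitochondrial relative, was higher by 0.39 (adjusted p = 5.01e-04) on CAF and 0.18 (adjusted p = 0.0965) on STD. The number of higher members was 2 without WKY rat 2 and 3 without LEW rat 1, 2 or 3, or WKY rat 3, 4 or 5, and 2 with the erythroid covariate. It was 3 without the 4 rats of high Hsph1, on the CAF arrays alone and after median centring or quantile normalisation.

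Among eicosanoid genes 4 of 28 were higher and 2 lower, against 2 and 1 with the erythroid covariate. The prostaglandin E receptors Ptger3 and Ptger4 were higher by 0.32 (adjusted p = 0.00710) and 0.45 (adjusted p = 0.00567). Cysltr1, a receptor for cysteinyl leukotrienes, was at 6.09, 6.62, 6.59, 6.79 and 6.56 in the 5 WKY rats and at 6.94, 7.06, 6.86, 7.64 and 7.46 in the 5 LEW rats, lower at −0.66 (SE 0.16, adjusted p = 0.0112). The number of lower members was 1 without any rat other than LEW rat 2. In coagulation, 2 of 23 were higher and 3 lower, which became 0 and 1 with the erythroid covariate and 4 and 5 with the heat shock covariate. The higher count was 0 without LEW rat 3 or 4, or WKY rat 1 or 2 and 1 without LEW rat 1, or WKY rat 3 or 4, and the lower count 1 without LEW rat 4, or WKY rat 2. F3, the tissue factor that starts clotting on monocytes, was at 10.10, 10.05, 9.99, 9.65 and 9.64 in the 5 WKY rats and at 8.64, 7.20, 7.81, 8.20 and 10.32 in the 5 LEW rats. LEW rat 5 exceeded every WKY rat, and the call of 1.45 (adjusted p = 0.0309) was lost on leaving out LEW rat 2, 3 or 4, or WKY rat 1, 2 or 3 (adjusted p = 0.0592 to 0.0898). The adhesion list had 3 of 30 higher and 4 lower. Esam, a tight-junction molecule of endothelium and platelets, was at 7.78, 7.85, 7.63, 7.85 and 8.05 in the 5 WKY rats and at 9.31, 8.95, 9.15, 9.18 and 9.01 in the 5 LEW rats, lower at −1.29 (SE 0.17, adjusted p = 2.74e-05), and F11r, its relative JAM-A, was lower at −0.87 (SE 0.17, adjusted p = 0.00197).

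The circadian clock had 4 of 15 members higher and none lower, with no overlap in any of the 4, as in 74.8% of all CAF calls. Cry2, a repressor of the clock, was at 10.17, 10.01, 10.06, 9.97 and 9.91 in the 5 WKY rats and at 9.47, 9.65, 9.40, 9.21 and 9.28 in the 5 LEW rats, higher by 0.62 (SE 0.10, adjusted p = 3.20e-04). Bhlhe40, a repressor that also restrains interleukin 10, was higher by 0.54 (SE 0.10, adjusted p = 0.00157), Per3 by 0.31 (adjusted p = 0.00227) and Bmal1, the core activator, by 0.20 (adjusted p = 0.0105). The hour at which each rat was bled is not given in the sources used here. Sgk1, a kinase induced by glucocorticoids, was at 12.15, 12.30, 12.18, 12.28 and 12.25 in the 5 WKY rats and at 11.34, 11.65, 11.22, 11.16 and 11.36 in the 5 LEW rats, higher by 0.89 (SE 0.08, adjusted p = 5.37e-07), but it was the only called gene of 15 in that list, which had 2 without LEW rat 2, or WKY rat 3, 3 with the heat shock covariate and 4 without the 4 rats of high Hsph1 or with array weights. In the stress response of the endoplasmic reticulum 5 of 22 were higher, led by Sdf2l1, a cochaperone, at 0.79 (SE 0.11, adjusted p = 7.35e-05), and Ppp1r15a, which restarts translation, at 0.77 (SE 0.16, adjusted p = 0.00284). This count was 2 without LEW rat 3 or 4, or WKY rat 1 or 5, and 3 without LEW rat 1. It was 3 with the erythroid covariate, 8 with the heat shock covariate and 9 without the 4 rats of high Hsph1. Hspa5, the main chaperone there, was at 0.22 (95% interval 0.07 to 0.38, adjusted p = 0.0701).

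Several basic programmes were near the background or below it. None of 22 heat shock genes and none of 25 Nrf2 genes was called, and neither list had more than 1 call each way without LEW rat 2, whereas 3 Nrf2 genes were lower without the 4 rats of high Hsph1. Of 66 ribosomal protein genes 1 was higher and 1 lower, with a median of −0.02. The higher count was 0 without LEW rat 1, 2 or 3, or WKY rat 1, 3 or 4, and the lower count 2 without WKY rat 1, while the erythroid covariate gave 0 and 2. Rps9 was the lower one, at 11.09, 11.05, 11.10, 11.17 and 11.03 in the 5 WKY rats and at 11.49, 11.51, 11.57, 11.56 and 11.61 in the 5 LEW rats. Its difference was −0.46 (SE 0.05, adjusted p = 7.32e-07), with little spread in either group. Cell division had 3 of 33 higher (6 with array weights), with Pcna, the sliding clamp of replication, at 0.42 (adjusted p = 7.73e-04) and Rrm1, a subunit of ribonucleotide reductase, at 0.39 (adjusted p = 6.50e-05), while Mcm6 was at −0.01 (95% interval −0.10 to 0.08, adjusted p = 0.959). Lysosomal genes stood above the background, with 16.7% called against 9.10% of named genes. They were split, 2 higher and 4 lower of 36, with the cathepsin Ctsa at 0.28 (adjusted p = 3.02e-04) and Ctss, which cleaves the invariant chain, at −0.38 (adjusted p = 2.45e-04). Without LEW rat 1 or 3, or WKY rat 4, or with the erythroid covariate, 2 of the 36 were lower.

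**Figure D5:**
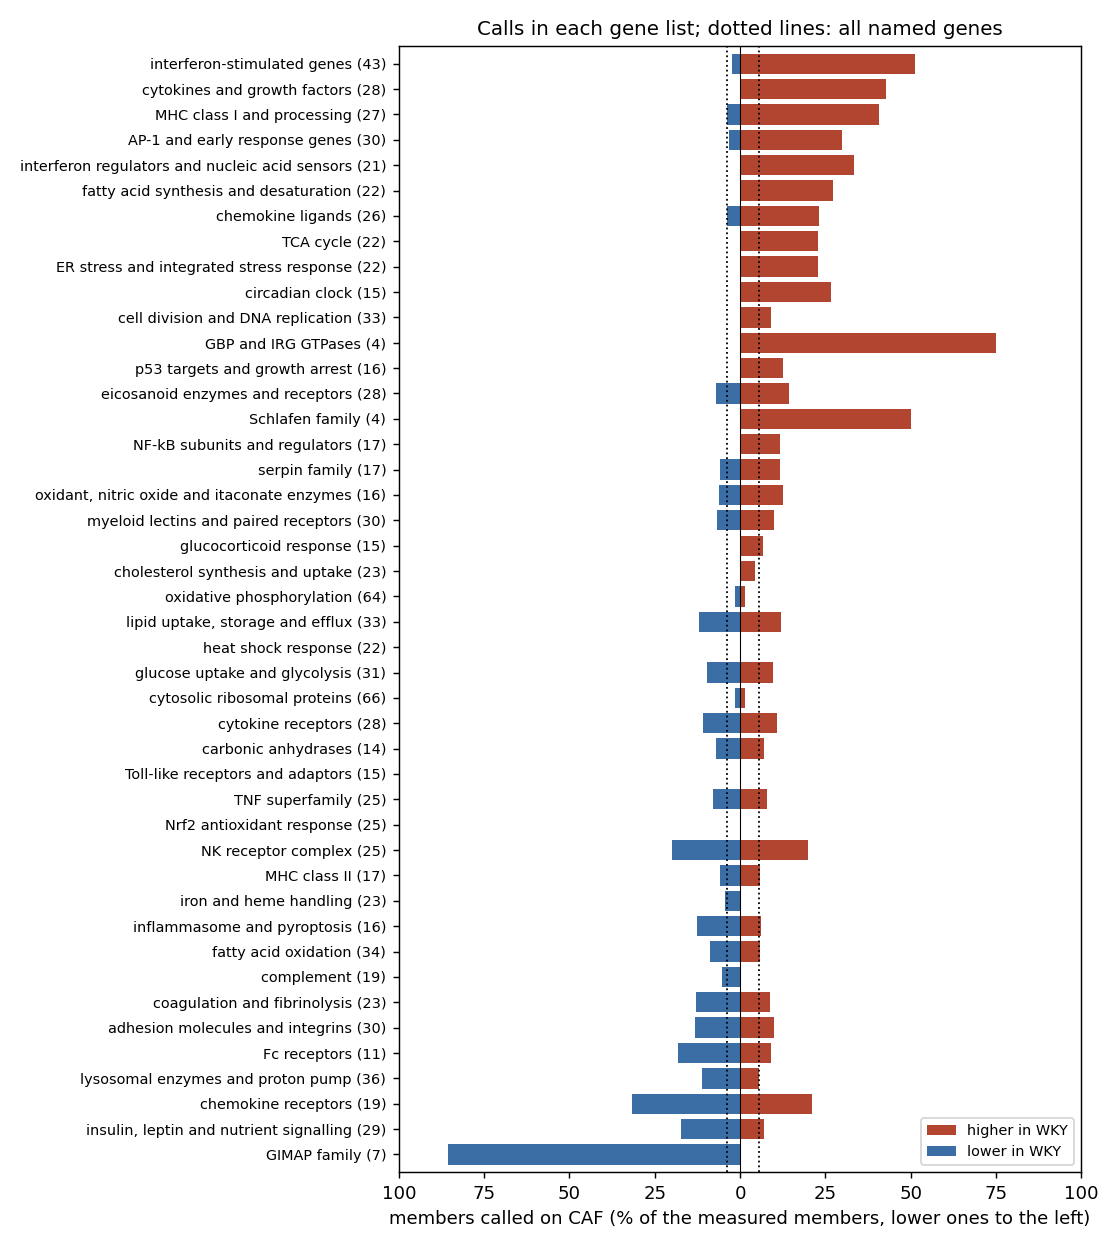
Share of the measured members of each gene list that was called on CAF (horizontal axis, percent), higher in WKY rats to the right and lower to the left, with the number of measured members in brackets and the shares of all named genes, 5.41% and 3.69%, as dotted lines. The GIMAP family reaches furthest to the left, with 6 of 7 members lower, and lists with small numbers of members have coarse shares.

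Markers of cell types moved with strain as well. Among 27 markers of monocytes and macrophages 2 were higher and 6 lower, with a median of −0.07. Of 27 neutrophil markers 5 were higher and none lower, with a median of 0.59 on CAF and 1.18 on STD. S100a9, a calcium-binding alarmin, was at 11.74, 11.43, 10.91, 11.79 and 11.90 in the 5 WKY rats and at 9.96, 11.39, 10.27, 9.67 and 10.55 in the 5 LEW rats. LEW rat 2 lay inside the WKY range, and the call of 1.18 (adjusted p = 0.0172) was lost on leaving out LEW rat 1 or 4 (adjusted p = 0.0502 to 0.0550). The number of higher neutrophil markers was 10 without WKY rat 3, 8 without LEW rat 2, 3 without LEW rat 4, or WKY rat 5 and 2 without LEW rat 1. It was 12 with array weights, 11 without the 4 rats of high Hsph1, 10 on the CAF arrays alone and 9 after a filter on low values. Among 21 markers of B and plasma cells 6 were higher and 1 was lower. Cd24, a sialoprotein of immature B cells and granulocytes, was at 10.82, 10.88, 10.87, 10.99 and 10.93 in the 5 WKY rats and at 10.40, 10.29, 10.20, 10.15 and 10.08 in the 5 LEW rats, a difference of 0.67 (SE 0.07, adjusted p = 3.24e-06). Tnfrsf17, or BCMA, of plasma cells was low in both strains and higher by 0.31 (adjusted p = 0.00455), and abundant Cd37 was at −0.01 (95% interval −0.16 to 0.13, adjusted p = 0.954). Without LEW rat 2, 2 were lower. With the erythroid covariate 3 were higher and 2 lower.

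T cell markers had 1 of 28 higher and 6 lower. Without LEW rat 1 or 2, or WKY rat 5, 2 were higher. Trat1, an adaptor of the T cell receptor, was at 8.61, 8.75, 8.98, 8.88 and 8.67 in the 5 WKY rats and at 9.74, 9.67, 9.69, 10.01 and 10.03 in the 5 LEW rats, lower at −1.05 (SE 0.12, adjusted p = 6.42e-06). Gata3, the factor of helper T cells that make interleukin 4, was lower at −0.51 (SE 0.08, adjusted p = 1.30e-04), and Lat, a scaffold of receptor signalling, was higher by 0.37 (adjusted p = 0.00490). Defining Cd3e and Cd3g were not called, at −0.06 (95% interval −0.20 to 0.07, adjusted p = 0.704) and 0.00 (95% interval −0.18 to 0.18, adjusted p = 0.998). Of 19 platelet markers 4 were lower and none higher. The platelet counts fell to 0 without LEW rat 3 or 4, or WKY rat 1 or 2, to 1 without LEW rat 1, to 2 without LEW rat 5, or WKY rat 3 or 5, and to 0 with the erythroid covariate, where 1 was higher, but were 7 lower with the heat shock covariate or array weights. Pf4, their main chemokine, was at −0.17 (95% interval −0.37 to 0.03, adjusted p = 0.365).

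Erythroid markers were lower in 6 of 25 cases and higher in 1, or 3 and 1 with their own mean as a covariate and 11 lower with array weights, with a median of −0.45. Car1, a carbonic anhydrase of red cells, was at 6.49, 6.38, 6.04, 6.49 and 6.48 in the 5 WKY rats and at 7.71, 7.85, 8.36, 6.77 and 7.15 in the 5 LEW rats, lower at −1.19 (SE 0.25, adjusted p = 0.00420) on CAF and −0.56 (adjusted p = 0.181) on STD. Alas2, which starts heme synthesis in red cell precursors, was at 10.40 ± 0.90 and 11.56 ± 0.65 and was not called, at −1.17 (95% interval −2.21 to −0.13, adjusted p = 0.198). Rhag, which carries the Rh complex, was at 8.54, 9.02, 8.71, 9.33 and 9.15 in the 5 WKY rats and at 7.50, 7.06, 7.83, 7.58 and 7.11 in the 5 LEW rats. It differed by 1.53 (SE 0.21, adjusted p = 5.40e-05), against the direction of the list. The erythroid mean itself differed by strain on CAF, at 8.87 to 9.65 in LEW and 8.16 to 8.89 in WKY rats. As a covariate it therefore overlaps with the contrast, and what red cells contributed to any call was not tested. With the erythroid mean as a covariate 1643 transcripts were called in all, 850 higher and 793 lower. Of the named genes whose adjusted p is given above, 27 lost their call under it (adjusted p = 0.0505 to 0.475), namely Acsl3, Bmal1, Car1, Casp1, Ccl2, Ccl4, Cd86, Clec4a2, Clec4e, Cxcl1, Elovl6, Eno1, F11r, F3, Fads2, Il1b, Klrk1, Lgals5, Lrp1, Lss, Pkm, Plet1, Prf1, Ptger4, RT1-N3, Tlr3 and Ucp2.

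No strain difference was shown to vary with diet, and the 8 genes with the smallest interaction p are given as values. Grhl3, a grainyhead factor of epithelia, was at 7.89, 8.11, 8.01, 8.19 and 8.10 in the 5 WKY rats and at 7.15, 7.31, 7.38, 7.38 and 7.48 in the 5 LEW rats. On CAF the difference was 0.72 (SE 0.08, adjusted p = 7.94e-06) and on STD 0.13 (adjusted p = 0.412), an interaction of 0.59 (SE 0.12, unadjusted p = 8.23e-05, adjusted p = 0.515). Prkacb, a catalytic subunit of protein kinase A, differed by 0.33 (adjusted p = 0.00268) on CAF and −0.09 (adjusted p = 0.488) on STD, and Abhd8, an abhydrolase, by 0.30 (adjusted p = 9.38e-05) and 0.03 (adjusted p = 0.772). Ncoa3, a coactivator of nuclear receptors, was not called on CAF, and its interaction was 0.32 (SE 0.06, unadjusted p = 7.40e-05, adjusted p = 0.515). Ly6i and Vash2 were not called on CAF either. Hipk1 and Krtap5-8 completed the 8, each on a probe set that was not its brightest. None of the 8 interactions passed, and the smallest adjusted p was 0.515.

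In 3 of 497 genes with more than 1 probe set, 1 probe set was called and differed by over 2-fold while the 95% interval of another lay within 1.5-fold either way. H2az1, a histone variant, was lower at −1.43 (SE 0.08, adjusted p = 2.01e-10) on 1 probe set and higher by 0.23 (SE 0.05, adjusted p = 0.00599) on the other, which was brighter. Rps23, a ribosomal protein gene, was lower at −1.06 (SE 0.10, adjusted p = 2.81e-07) and at −0.33 (adjusted p = 0.0140) on 2 probe sets and at −0.18 (95% interval −0.31 to −0.05, adjusted p = 0.0859) on the brightest. Ldha, a subunit of lactate dehydrogenase, was lower at −5.99 (SE 0.15, adjusted p = 5.32e-16) on 1 probe set and at 0.04 (95% interval −0.09 to 0.17, adjusted p = 0.840) on the brightest, which stands for it in the glucose list. Whether these probe sets read other copies of the genes or strain variants was not tested. A further 806 called transcripts, 415 higher and 391 lower, have no single gene symbol and are unnamed here.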

How the data were processed

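RNA from the blood cells of 20 rats was read on Rat Gene ST arrays. The authors deposited a table of log2 values for each probe set, made comparable between arrays by robust multi-array averaging according to the methods and by MAS5 according to the submitters' processing notes, with no version given, and these log2 values were used as deposited. Array files and probe sequences were not used here, and the number of arrays limits the precision. Groups were taken from the labels. One mean per group was fitted to all 20 arrays with limma 3.58.1 in R 4.3.3 (lmFit and eBayes, 16 residual degrees of freedom, median SE of a difference 0.07), and p-values were adjusted by Benjamini-Hochberg over 28826 probe sets. The p-values measure the spread between single rats of each group. Gene names come from the platform annotation, in which 15214 probe sets carry 1 symbol, 301 several, and 13311 are not listed. The brightest probe set stands for a gene. The text names the 15 largest rises and falls, up to 6 called and 3 abundant uncalled members of each list, the 8 smallest interaction p-values, discordant probe sets, runs of neighbouring calls and heat shock genes. The contrast, the gene lists and the tests were chosen with earlier results of these data known. Alternatives were the CAF arrays alone, other filters, scalings and weights, a replicate block, erythroid and heat shock covariates, and each rat left out.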

Additional observations from a re-analysis of the deposited data

Results flagged for a closer look

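In 31 of 462 groups of 5 rats, 1 rat lay further from the nearest of the others than Dixon's test allows at its 95% critical value of 0.71, where chance flags about 1 in 20 groups, or 23. Of these, 10 came from WKY rat 3 and 8 from LEW rat 2. All values are log2 signals. WKY rat 3 stood apart for Alas2 at 8.84, Car1 at 6.04, Cxcl1 at 10.86, Psmb9 at 10.29, Sv2a at 7.49, Tap1 at 9.57, Tgfb1 at 12.75, the mean level of Nrf2 antioxidant response at 9.05, the mean level of cholesterol synthesis and uptake at 8.64 and the mean level of interferon regulators and nucleic acid sensors at 10.27. LEW rat 2 stood apart for Casp1 at 9.81, Cd27 at 10.86, Dok4 at 7.30, Fads2 at 7.95, Hsph1 at 11.73, Tlr3 at 5.85, the mean level of T cell markers at 10.38 and the mean level of heat shock response at 10.31. LEW rat 5 stood apart for P2ry13 at 9.76, Prg4 at 10.87 and the mean level of coagulation and fibrinolysis at 8.67. LEW rat 4 stood apart for Cd1d1 at 8.55 and Triobp at 8.84. WKY rat 4 stood apart for Cd86 at 9.54 and Cxcr3 at 8.84. WKY rat 1 stood apart for Elovl6 at 9.13 and Tlr3 at 6.12. WKY rat 5 stood apart for Jak1 at 12.40 and Zbp1 at 9.97. LEW rat 3 stood apart for Clec12a at 8.88. LEW rat 1 stood apart for Scarb2 at 10.38.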

How the results depend on the processing

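Of 143 called genes named here, 110 kept their call under every alternative, 33 lost it under at least 1 and none reversed, while 8 uncalled ones passed under at least 1. Calls on CAF numbered 1677 to 2211 when 1 CAF rat was left out, the fewest without WKY rat 2, and 1643 with the erythroid covariate, 2520 with the heat shock covariate, 2105 after median centring and 2189 after quantile normalisation. With array weights 3196 were called, 1478 of them lower in WKY rats. Among the 15214 transcripts with 1 gene symbol, 617 were lower and 128 exceeded 2-fold, in part because fewer transcripts were tested. Without the 4 rats of high Hsph1, an alternative chosen after seeing the data, 2339 were called. The interaction had no call in any alternative. Same-numbered WKY and LEW rats did not deviate together on CAF (correlations of 0.13, 0.06, −0.10, 0.08 and 0.05, with the own number highest in 1 of 5), so the numbers are not taken to pair the rats. With the replicate block 2345 transcripts were called, Lgals5 and Pkm lost their call and Gzmb and Hspa5 gained one. The block called 12 neutrophil markers, 8 clock genes and 5 NF-κB genes as higher. Differences are limited by 5 rats a group, by colonies that stand for strains and by mixed cells.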
